A study of Rattus norvegicus with 18 samples.

Results

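The immediate early transcription factors are 9 genes, Fos, Fosl2, Junb, Egr1, Egr2, Nr4a1, Klf6, Ier2 and Csrnp1, chosen by gene name with earlier results of these data known. They were 9 of the 35672 distinct gene names or accessions on the arrays and 10 of the 41012 probes, with Csrnp1 under its older name Axud1 and Klf6 on 2 probes. The RNA came from PBMC, peripheral blood mononuclear cells, a mixture of mainly lymphocytes and monocytes, of 18 male adult Wistar rats, 6 on each of 3 purified diets. The high-protein diet (HPD) drew 45% of its energy from protein, mainly casein, 10% from fat and 45% from carbohydrate. The high-fat diet (HFD) drew 60% from fat, 20% from protein and 20% from carbohydrate. The control low-fat diet (LFD) drew 10% from fat, 20% from protein and 70% from carbohydrate. All rats were 2 months old when the diets began, ate them over 4 months and had no food in the last 14 h of life. LFD was eaten freely, and the HPD and HFD rats were given the same energy as the LFD rats had eaten. Each 2-colour array carried the Cy5-labelled RNA of 1 rat and, labelled with Cy3, the same equimolar pool of the samples, and each value is a log2 ratio of the rat over that pool. The labels of 1 array disagree: its title names HFD, as replicate 7, and its source name HPD. It was counted as HPD replicate 7, and the differences of HPD from HFD and LFD, with the counts of each gene list, are also given without it.

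The 18 arrays lay on 5 slides. Between 53.1 and 63.4% of the probes were well above background in Cy5 on an array. Precision is limited by how many arrays there are. The median standard error (SE) of a difference between HFD and LFD over the 25207 probes tested was 0.21 on the log2 scale. Of 153 pairs of arrays, 1 correlated below -0.3 over all probes (LFD replicates 6 and 2, at -0.50). The labels state the dyes of every array, so the direction of the ratios was kept. Limma called 0 of 25207 probes in each comparison of diets at an adjusted p of 0.05 and 89 probes (0.353%) for slide with diet in the model. For slide 23.2% of the probes had an unadjusted p under 0.05, against 2.01 to 3.02% in the comparisons of diets. T cell markers (15 of 16 measured) and monocyte markers (12 of 16) were present as the label PBMC implies. Of 15 neutrophil markers 8 passed the filter, while Mpo, Ltf, Mmp8, Cxcr2 and Fpr1 were well above background on 1 array each and Lcn2 on 0.

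Immediate early genes are those whose transcription starts within minutes of a stimulus, without new protein being made, because the factors that switch them on are already present and need only be phosphorylated. In blood leukocytes the stimulus can be an antigen receptor, a cytokine, a microbial product, adhesion or handling, and most of these RNAs are then degraded rapidly. Serum response factor with its ternary complex partners, bound at CArG boxes, and CREB, bound at cyclic AMP response elements, are the classical activators. Many of the proteins are themselves transcription factors that pass the signal on: Fos, Fosl2 and Junb dimerise to form AP-1, and the Egr proteins bind GC-rich sites.

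Promoter sequences show which of these classical motifs the genes carry. RefSeq tables for the rat (build GRCr8) held a promoter for 7 of the 9 members, all except Fos and Csrnp1, and the 250 bases before the annotated start were searched on both strands. A CArG box was present in 3 of 7 (Egr1, Egr2 and Klf6), against 1.497% of 33469 rat promoters over the same window. The full cyclic AMP element TGACGTCA was present in Ier2, that is in 1 of 7 against 1.587%. Its core, TGACG or CGTCA, which the full element contains, was present in 5 of 7 (Nr4a1, Egr1, Ier2, Egr2 and Junb) against 18.2%. TGANTCA, the AP-1 motif, was in 0 of 7 against 6.34%, and GCGNGGGCG, the Egr motif, in 2 of 7 (Fosl2 and Nr4a1) against 4.29%. A match describes these letters only. The 4 promoters below are shown because Egr1 and Egr2 share 1 CArG box and 1 core at the same places, Nr4a1 and Ier2 had the smallest p-values between diets, and Nr4a1 carries the most cores. Capitals mark CArG boxes, full elements and cores. The regions are chr18:26736828-26737077 (+ strand) for Egr1, chr20:21054442-21054691 (- strand) for Egr2, chr7:134259888-134260137 (+ strand) for Nr4a1 and chr19:40399123-40399372 (+ strand) for Ier2, each written from 5′ to 3′.
Egr1: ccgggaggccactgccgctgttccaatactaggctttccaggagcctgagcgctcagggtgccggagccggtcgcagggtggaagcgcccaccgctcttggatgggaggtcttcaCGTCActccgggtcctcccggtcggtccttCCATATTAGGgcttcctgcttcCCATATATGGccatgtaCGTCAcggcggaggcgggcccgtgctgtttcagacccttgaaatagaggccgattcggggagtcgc
Egr2: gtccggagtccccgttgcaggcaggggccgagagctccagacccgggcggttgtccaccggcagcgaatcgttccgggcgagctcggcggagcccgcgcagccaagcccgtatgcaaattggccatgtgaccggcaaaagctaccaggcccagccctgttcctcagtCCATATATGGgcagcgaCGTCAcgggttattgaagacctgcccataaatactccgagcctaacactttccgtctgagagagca
Nr4a1: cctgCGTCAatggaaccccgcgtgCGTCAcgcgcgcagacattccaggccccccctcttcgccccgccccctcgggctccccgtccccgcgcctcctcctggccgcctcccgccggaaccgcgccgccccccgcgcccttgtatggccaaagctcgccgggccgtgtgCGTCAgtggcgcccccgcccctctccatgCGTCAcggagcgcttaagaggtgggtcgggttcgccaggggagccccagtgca
Ier2: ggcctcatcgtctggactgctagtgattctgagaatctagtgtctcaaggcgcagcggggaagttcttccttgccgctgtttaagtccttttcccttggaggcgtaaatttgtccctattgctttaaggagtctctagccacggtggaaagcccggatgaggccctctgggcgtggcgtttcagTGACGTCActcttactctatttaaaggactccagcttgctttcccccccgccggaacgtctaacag
Egr1 and Egr2 both hold CCATATATGG with its first base 83 bases before the start and CGTCA with its first base 66 bases before it. Egr1 has a further CArG box, CCATATTAGG, 105 bases before the start and a further core, CGTCA, 135 bases before it. Nr4a1 has 4 cores and no CArG box in this window, and the TGACGTCA of Ier2 begins 66 bases before its start.

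The AP-1 genes had their lowest group means in HPD rats, for Junb only with HPD replicate 7 counted. Fos, the partner that forms AP-1 only as a heterodimer, had log2 ratios of -1.17, -0.69 and 0.34 (lowest, median and highest) in HPD rats, -0.53, 0.0043 and 0.56 in HFD rats and -0.97, -0.14 and 0.38 in LFD rats. The groups overlapped, since HPD replicate 2 stood at 0.34 while the other HPD rats lay at -0.29 or below. Fosl2, which encodes the longer-lived Fos family member Fra-2, had -0.85, -0.47 and 0.14 in HPD rats, -0.42, 0.0040 and 0.44 in HFD rats and -1.01, 0.20 and 0.32 in LFD rats. The LFD rats were divided here, with replicates 2 and 6 at -1.01 and the other 4 near the top of the range. These 2 arrays also spread most widely over all tested probes. The median absolute deviation of their log2 ratios was 0.58 and 0.62, against 0.27 to 0.40 on the other arrays. Whether their extreme values come from the rats or the arrays was not tested. Junb, a Jun family member that can restrain Jun, had -1.08, -0.40 and 0.040 in HPD rats, -0.56, -0.064 and 0.27 in HFD rats and -1.17, -0.32 and 0.37 in LFD rats. Its highest and lowest values of all were both in LFD rats.

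The zinc finger genes spread widely. Egr1, the growth-factor-induced activator, had log2 ratios of -1.23, -0.20 and 1.00 in HPD rats, -0.55, 0.39 and 0.70 in HFD rats and -1.35, -0.035 and 1.02 in LFD rats. HPD replicate 2 and LFD replicate 6 were the highest arrays, both above every HFD array. On LFD replicate 2, the lowest array, the Cy3 signal of the pool was 1842 intensity units, against 647 to 1267 on the other arrays. Egr2, its relative with roles in T cell tolerance in the mouse, had -0.56, -0.29 and 0.54 in HPD rats, -0.66, 0.23 and 1.01 in HFD rats and -0.81, -0.13 and 1.08 in LFD rats. Here the highest HPD array was replicate 7, the lowest HPD array for 7 of the other genes. Klf6, a Krüppel-like activator, had -0.63, -0.031 and 0.11 in HPD rats, -0.14, 0.15 and 0.32 in HFD rats and -0.33, -0.20 and 0.40 in LFD rats on its brighter probe. All HPD arrays but replicate 7 lay at -0.10 or above, inside the HFD range. The other Klf6 probe was more variable and had -1.20, -0.17 and 0.15 in HPD rats, -0.34, -0.048 and 0.46 in HFD rats and -1.74, -0.12 and 0.81 in LFD rats.

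Nr4a1, an orphan nuclear receptor (Nur77) induced by antigen receptor signals and needed in the mouse for patrolling monocytes, had log2 ratios of -1.20, -0.31 and 0.52 in HPD rats, -0.16, 0.13 and 0.97 in HFD rats and -0.18, -0.032 and 0.21 in LFD rats. Its 6 LFD values lay close together, with an SD of 0.16, while the HPD and HFD values had SDs of 0.61 and 0.44. Ier2, a small nuclear regulator, had -0.76, -0.29 and 0.30 in HPD rats, -0.41, 0.31 and 0.49 in HFD rats and -0.30, 0.14 and 0.21 in LFD rats. HPD replicate 2 was again the top HPD array, and HFD replicate 4 was the lowest HFD array. Csrnp1, a cysteine-serine-rich nuclear protein first described as induced by AXIN1, had -0.81, -0.30 and 0.11 in HPD rats, -0.51, -0.20 and 0.33 in HFD rats and -0.65, -0.065 and 0.18 in LFD rats. In bulk PBMC, fewer cells of a type and less RNA per cell cannot be told apart.

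**Figure D1:**
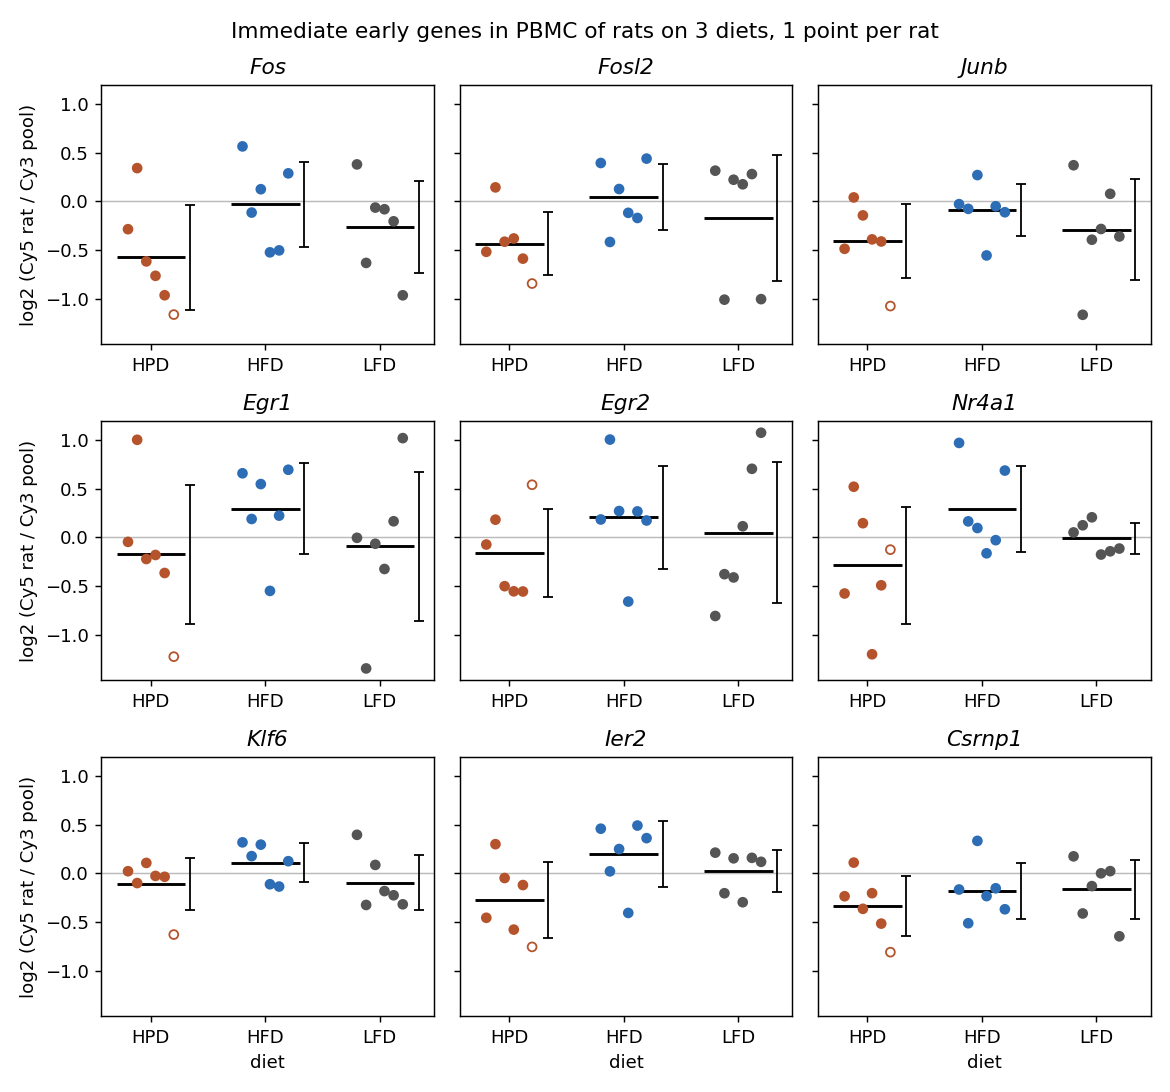
Log2 ratio of the rat over the pool (y axis) for each of the 9 genes by diet, with 1 point per rat (n = 6 per diet), the group mean as a bar and the SD beside it; the open circle is HPD replicate 7, the array with conflicting labels. The groups overlap for every gene, and for Fos the HPD points run from -1.17 to 0.34 against -0.53 to 0.56 in HFD rats.

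HPD against HFD asks how a diet rich in protein compares with a diet rich in fat at equal energy. All 9 genes were lower in HPD than in HFD rats, with a median log2 difference of -0.47, but 0 of 9 passed the test (limma, adjusted p = 0.995 for each). Over all 25207 probes, 47.7% were lower in HPD and the median difference was 0.011. Most of the 9 genes varied together from rat to rat, so they are not separate evidence, here or in the comparisons with LFD. An unadjusted p under 0.05 was reached by 2 of 9 genes, both lower, where 3.02% of all probes reached it in either direction and 1.24% were lower. No gene separated the 6 HPD from the 6 HFD arrays, as 0.242% of all probes did.

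By role, the AP-1 genes stood in HPD against HFD at -0.55 ± 0.27 for Fos (log2 difference ± SE, unadjusted p = 0.0550), -0.48 ± 0.26 for Fosl2 and -0.32 ± 0.22 for Junb. For Fos the 95% interval ran from -1.11 to 0.01. The zinc finger genes stood at -0.47 ± 0.36 for Egr1, -0.37 ± 0.32 for Egr2 and -0.22 ± 0.15 for Klf6 (-0.33 ± 0.33 on its other probe). Nr4a1 had the largest of the 9 differences, -0.58 ± 0.25 (limma, unadjusted p = 0.0304, fold 0.671), and Ier2 the smallest p, at -0.47 ± 0.19 (unadjusted p = 0.0203, fold 0.720). Csrnp1 had the smallest difference, -0.15 ± 0.17. The difference of Egr2, a dim probe, was -0.045 to -0.082 with normexp, with Cy5 alone or in the authors' deposited table, and that of Klf6 was -0.035 in that table. For 8 of the 9 genes exactly 1 of 6 HPD arrays lay above the HFD mean, and for Klf6 0 did.

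**Figure D2:**
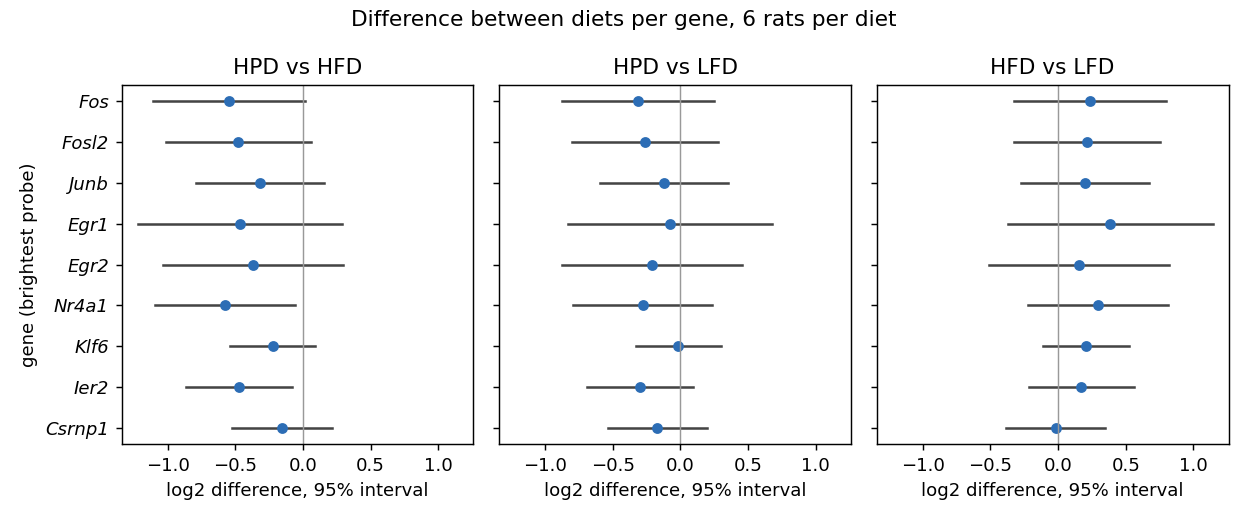
Log2 difference between diets (x axis) for each gene's brightest probe (rows), as a point with its 95% interval from limma, in HPD vs HFD, HPD vs LFD and HFD vs LFD, with 6 rats per diet. All 9 points lie below 0 in HPD vs HFD, and the intervals of Nr4a1 and Ier2 end at -0.06 and -0.08.

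A pair of HPD arrays set the ends of that group. HPD replicate 2 was the highest HPD array for 7 of the 9 genes and HPD replicate 7 the lowest for 7. Averaged over the 9 genes, HPD replicate 2 stood at 0.28 and the other HPD rats at -0.23 to -0.68. The same average ran from -0.37 (replicate 4) to 0.37 (replicate 1) in HFD rats and from -0.60 (replicate 2) to 0.12 (replicate 1) in LFD rats. Without HPD replicate 7 all 9 genes were still lower in HPD than in HFD rats, with a median of -0.38, and 1 gene, Nr4a1, had an unadjusted p under 0.05 (-0.61 ± 0.26, limma, unadjusted p = 0.0338). Ier2 then stood at -0.38 ± 0.18 (limma, unadjusted p = 0.0572) and Fos at -0.43 ± 0.27. Leaving out HPD replicate 2, the highest HPD array in this average, widens the difference by the choice of array. The median was then -0.59 and 4 genes had p under 0.05 in limma, where leaving out any other single array gave 1 to 3. Ier2 then stood at -0.59 ± 0.18 (limma, unadjusted p = 0.00410) and Nr4a1 at -0.74 ± 0.23 (unadjusted p = 0.00515), but again 0 passed adjustment (adjusted p = 0.977). Counted as HFD, the array with conflicting labels left 8 of 9 genes lower, with a median of -0.24. On the HFD side, replicates 1 and 6 were the most alike of the 153 pairs of arrays (r = 0.61) and the highest HFD arrays for Nr4a1, at 0.97 and 0.69. Averaged as 1 sample they left Nr4a1 at -0.47 ± 0.25 (limma, unadjusted p = 0.0763).

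**Figure D3:**
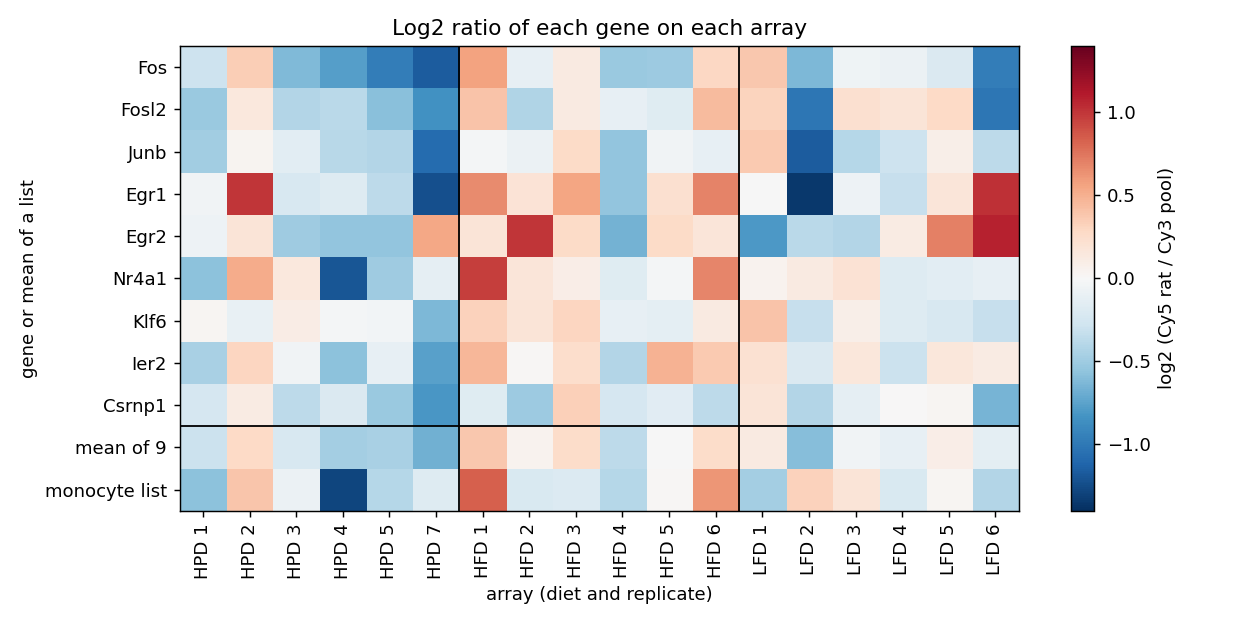
Heat map of the log2 ratio of the rat over the pool for each gene (rows) on each array (columns, ordered by diet and replicate), with the mean of the 9 genes and the mean of the monocyte markers below the line. HPD 2 stands at 0.28 in the mean of the 9 genes where HPD 7 stands at -0.68, and the row of Nr4a1 runs with the row of the monocyte list.

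Slides were filled unevenly by diet, so the difference was also taken within slides. Slide 2 held 3 HPD and 1 HFD arrays and slide 3 held 1 HPD and 2 HFD arrays, and all 9 genes were lower in HPD on both. Each count rests on 1 array of a diet. The HFD array of slide 2, replicate 3, had all 9 genes above 0, and the HPD array of slide 3, replicate 5, had 0. Since most of these genes varied together, the 9 are not separate evidence within a slide. Fos stood at -0.81 on slide 2 and -0.85 on slide 3, and Nr4a1 at -0.28 and -0.75. Averaged over the 9 genes, the difference was -0.66 on slide 2 and -0.39 on slide 3. All 9 genes were still lower on slide 2 without its HPD replicate 7, with Fos at -0.58, Nr4a1 at -0.31 and the average at -0.52. With slide as a block all 9 genes were lower in HPD than in HFD rats, with a median of -0.51. In that fit 2 genes, Fosl2 and Fos, had an unadjusted p under 0.05. Nr4a1 and Ier2, the genes that reached it without the block, did not reach it with slide in the model. No member passed the test for slide itself (lowest adjusted p = 0.167, for the other Klf6 probe). That probe had an unadjusted p of 0.0263 for slide in limma's F test, where 23.2% of all probes were under 0.05.

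HPD against LFD asks what more protein in place of carbohydrate does at the same fat content. Again 9 of 9 genes were lower in HPD rats, with a median of -0.21 where 46.1% of all probes were lower, and 0 of 9 passed (adjusted p = 0.99995). None reached an unadjusted p under 0.05, as 2.84% of all probes did, and none separated the groups, as 0.0793% did. Fos was at -0.31 ± 0.27, Ier2 at -0.30 ± 0.19 (limma, unadjusted p = 0.123) and Nr4a1 at -0.28 ± 0.25. The AP-1 partners Fosl2 and Junb were at -0.26 ± 0.26 and -0.12 ± 0.22, and Csrnp1 at -0.17 ± 0.17. Egr2, Egr1 and Klf6 were at -0.21 ± 0.32, -0.081 ± 0.36 and -0.016 ± 0.15 (-0.11 ± 0.33 on the other Klf6 probe). Without HPD replicate 7 only 6 of 9 genes were lower in HPD, since Egr1, Junb and Klf6 then stood at 0.13, 0.014 and 0.088. Within slides the difference in the 9-gene average was -0.41 on slide 3 (1 array each) and -0.085 on slide 4 (2 each), and Egr1 stood at -0.30 and 0.49.

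HFD against LFD asks what fat in place of carbohydrate does. In HFD rats 8 of 9 genes were higher, with a median of 0.21 where 51.5% of all probes were higher. None passed (adjusted p = 0.9999) or reached an unadjusted p under 0.05, as 2.01% of all probes did, and none separated the groups, as 0.0833% did. The largest difference was that of Egr1, 0.39 ± 0.36, followed by Nr4a1 at 0.30 ± 0.25 and Fos at 0.23 ± 0.27. Fosl2, Klf6 and Junb stood at 0.21 ± 0.26, 0.21 ± 0.15 and 0.20 ± 0.22, Ier2 at 0.17 ± 0.19 and Egr2 at 0.16 ± 0.32. Csrnp1 was at -0.018 ± 0.17. Within slides the 9-gene average was 0.45 on slide 1 (2 arrays each), -0.013 on slide 3 (2 HFD, 1 LFD) and 0.13 on slide 5 (1 each). Egr1 averaged 0.42 in HFD and -0.68 in LFD arrays on slide 1, and its differences were 0.14 on slide 3 and -0.80 on slide 5, so its direction was not the same on all 3 slides.

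The order of the group means was HFD, LFD, HPD for 8 of the 9 genes and LFD, HFD, HPD for Csrnp1, and in limma no gene had an unadjusted p under 0.05 between HFD and LFD or between HPD and LFD. This order depended on HPD replicate 7. Without it Egr1, Junb and Klf6 were higher in HPD than in LFD rats (0.13, 0.014 and 0.088), so HPD was not their lowest group. The 3 comparisons share their arrays, so they are not separate evidence of 1 order. For any diet 0 of 9 genes passed limma's F test and 0 had an unadjusted p under 0.05 (2.30% of all probes did), with Ier2 lowest (unadjusted p = 0.0592 in limma).

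The spread between rats on 1 diet exceeded every difference between diets for Egr1, Egr2, Junb, Csrnp1 and both Klf6 probes. For Fos, Fosl2, Nr4a1 and Ier2 the difference between HPD and HFD was larger than this spread. Residual SDs were 0.66 for Egr1, the 86.2nd percentile of all probes, 0.58 for Egr2, 0.49 for Fos, 0.46 for Fosl2, 0.44 for Nr4a1, 0.40 for Junb, 0.32 for Ier2, 0.30 for Csrnp1 and 0.25 for Klf6 (0.61 on its other probe), against a median of 0.37 over all probes. The pool channel, where the same pool was hybridised 18 times, gives the spread of the arrays without that of the rats. The Cy5 spread holds the rats together with the handling of each separate RNA sample, and these cannot be told apart here. For Nr4a1 the SD of the log2 signal was 0.45 in Cy5, which holds the rats, and 0.055 in Cy3, a ratio of 8.13 where the median probe had 1.62. Fos had a ratio of 4.92 and Ier2 of 4.16, while Egr2, a dim probe, had 1.46. The Cy5 signal of Egr2 averaged 47.0 intensity units in HPD, 52.6 in HFD and 53.2 in LFD rats, and its Cy3 signal was well above background on 16 of 18 arrays. All 10 probes were well above background in Cy5 on 18 arrays and none was saturated. Egr1 was printed on 10 spots per array, and its log2 ratio varied over them with an SD of 0.023 to 0.078, far below its SD between rats.

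**Figure D4:**
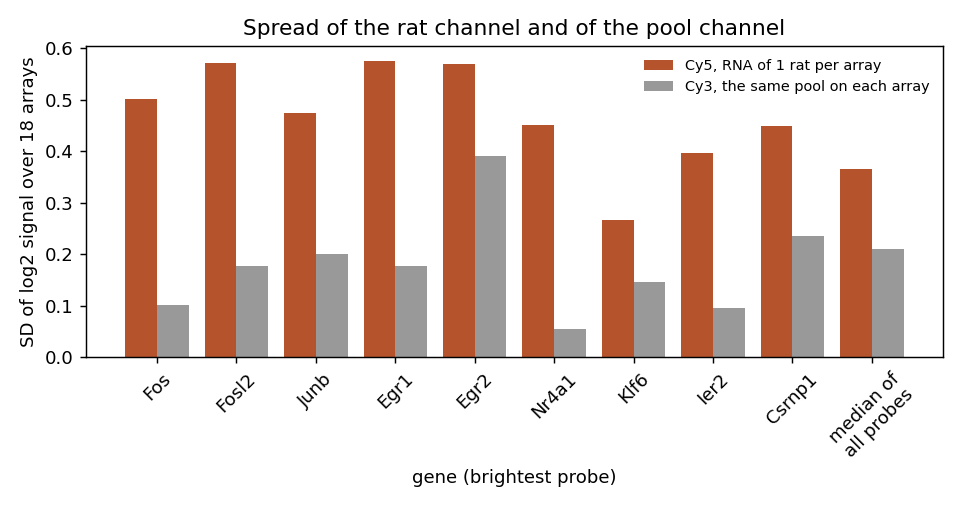
SD of the log2 signal over 18 arrays (y axis, after quantile normalization) in the rat channel (Cy5) and the pool channel (Cy3), for each gene's brightest probe and for the median of all 25207 tested probes. Nr4a1 has 0.45 in Cy5 against 0.055 in Cy3, and Egr2 0.57 against 0.39.

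The genes other than Egr2 varied together from rat to rat. Of the 28 pairs among the other 8 genes all 28 had a correlation above 0 over the 18 arrays, with a median Pearson r of 0.62, where the median of all pairs of 8517 genes was -0.0017 and 9.93% of them reached 0.5. After Benjamini-Hochberg adjustment over all 36 pairs, 18 passed by r and 14 by Spearman's rho, in 100000 permutations. Fos and its family member Fosl2 were the closest pair, with r = 0.85 (adjusted p = 0.00072, permutation test, n = 18) and rho = 0.84 (adjusted p = 0.00108). That r was 0.81 without the 2 arrays farthest from the median of Fos, and 0.86 after diet and slide were removed.

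Junb and Egr1 had r = 0.75 and rho = 0.70 (adjusted p = 0.00396 and 0.00877, permutation tests), but r = 0.43 without the 2 arrays farthest from the median of Junb. Egr1 and Ier2 had r = 0.72 and rho = 0.77 (adjusted p = 0.00396 and 0.00444, permutation tests) and 0.68 without the 2 farthest. After removing diet and slide, 31 of the 36 pairs were above 0, with a median r of 0.64, where 49.96% of all pairs of genes were above 0. The 28 pairs without Egr2 all stayed above 0, with a median r of 0.69. Of the 8 pairs with Egr2, 4 were above 0 and none passed, and their r ran from -0.30 (with Klf6) to 0.42 (with Egr1). These values depended on few arrays and on diet and slide: Egr1 and Egr2 had a rho of 0.54 and an r of 0.65 without the 2 arrays farthest from the median of Egr1, and Egr2 and Csrnp1 had an r of -0.25 as measured and -0.63 after diet and slide were removed. Whether the pairs with Egr2 differ from the rest was not tested, and the dim signal of its probe stands beside them. The ratios of 1 array share its 2 hybridised samples and its slide. Each gene set against the mean of the other 8 gave r = 0.85 for Fos, 0.83 for Junb, 0.80 for Ier2, 0.75 for Fosl2, 0.72 for Egr1, 0.62 for Klf6, 0.57 for Csrnp1, 0.54 for Nr4a1 and 0.048 for Egr2, as a description.

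**Figure D5:**
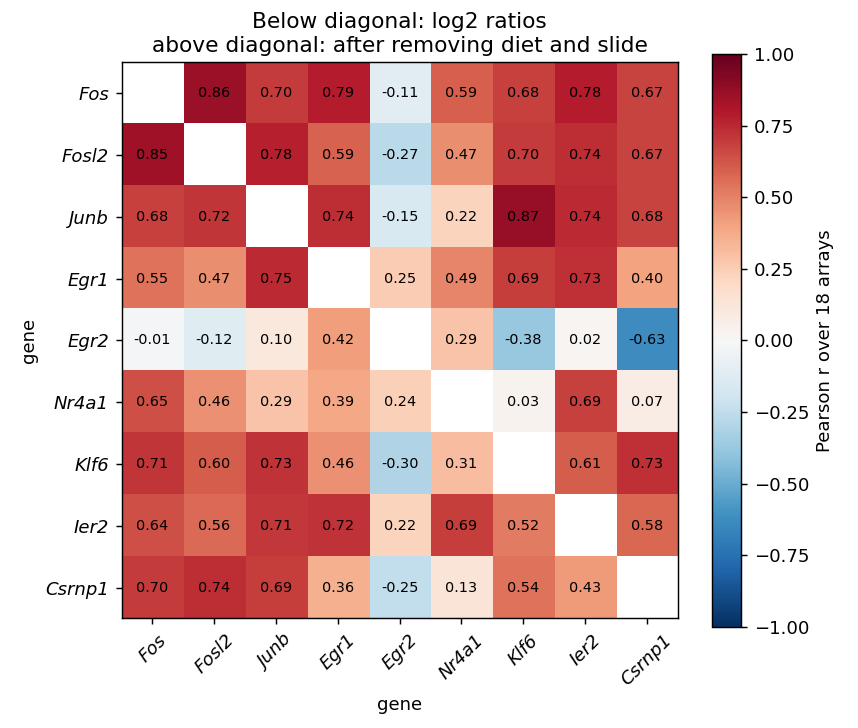
Pearson r over 18 arrays between the log2 ratios of each pair of genes, as measured (below the diagonal) and after removing diet and slide (above it). Fos and Fosl2 reach 0.85 and 0.86, while the row of Egr2 holds values from -0.30 to 0.42 as measured.

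The genes most like the average profile of the 9, among 8508 genes ranked over 18 arrays, were the neutrophil-attracting chemokine gene Cxcl2 (r = 0.86), the G-protein signalling regulator Rgs2 (r = 0.85), the respiratory chain subunit gene Uqcrfs1 (r = 0.85), the chemokine gene Cxcl1 (r = 0.85) and the ubiquitin ligase gene Siah2 (r = 0.80). They are named for their rank and carry no test. After diet and slide were removed the 5 stood at 0.89, 0.90, 0.86, 0.87 and 0.85 in the same order.

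Other genes of the pathway were read from 4 lists, in which 0 genes passed the test in any comparison. Of 10 other AP-1 and partner factors 8 were lower in HPD than in HFD rats (median -0.18), with Jdp2, a repressive Jun partner, at -1.08 ± 0.43 (limma, unadjusted p = 0.0220), the stress-induced factor Atf3 at -0.78 ± 0.38 and the small Maf protein gene Mafk at -0.41 ± 0.22. Against LFD 8 of 10 were lower in HPD (median -0.23) and 6 of 10 higher in HFD (median 0.03). Of 17 measured other immediate early transcription factors 13 were lower in HPD than in HFD rats (median -0.26), with the clock repressor gene Bhlhe40 at -0.44 ± 0.20 (limma, unadjusted p = 0.0454), Cebpb, an activator of myeloid and acute phase genes, at -0.56 ± 0.26 (unadjusted p = 0.0476) and the repressor gene Nfil3 at -0.45 ± 0.24. In this list 13 of 17 were lower in HPD and 13 of 17 higher in HFD than in LFD rats (medians -0.19 and 0.10). Leaving out HPD replicate 7, the genes lower in HPD than in HFD rats were 7 of 10 in the AP-1 list (median -0.10) and 12 of 17 in this one (median -0.16), Jdp2 stood at -1.11 ± 0.47 and Bhlhe40 at -0.36 ± 0.21. Against LFD, 8 of 10 and 11 of 17 were then lower in HPD (medians -0.16 and -0.15).

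Feedback inhibitors and other immediate early genes, 30 of 33 measured, were lower in HPD than in HFD rats for 27 of 30 (median -0.25). The polo-like kinase gene Plk2 was at -1.05 ± 0.35 (limma, unadjusted p = 0.00771), the pseudokinase gene Trib1 at -0.83 ± 0.39 (unadjusted p = 0.0496) and Dusp1, a phosphatase that switches off MAP kinases, at -0.73 ± 0.39. Against LFD, 24 of 30 were lower in HPD (median -0.07), with Plk2 at -0.96 ± 0.35 (limma, unadjusted p = 0.0129) and Dusp4 at -0.57 ± 0.26 (unadjusted p = 0.0393), and 21 of 30 were higher in HFD (median 0.13), with Dusp1 at 0.63 ± 0.39. Of 23 measured genes of MAP kinase signalling upstream, 18 were lower in HPD than in HFD rats (median -0.12), 13 lower in HPD than in LFD rats (median -0.02) and 18 higher in HFD than in LFD rats (median 0.07). Elk1, a ternary complex partner of serum response factor, was at 0.72 ± 0.34 in HPD against LFD (limma, unadjusted p = 0.0469). Without HPD replicate 7, 24 of 30 feedback and other genes were lower in HPD than in HFD rats (median -0.16) but 16 of 30 lower than in LFD rats (median -0.0051), and the upstream genes lower were 18 and 13 of 23 (medians -0.069 and -0.0052). Plk2 then stood at -0.87 ± 0.35 against HFD and -0.79 ± 0.35 against LFD, Dusp4 at -0.48 ± 0.27 and Elk1 at 0.62 ± 0.35 against LFD.

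No monocyte marker passed the test in any comparison, and their counts stand here beside those of the 9 genes. All 12 measured were lower in HPD than in HFD rats (median -0.39), 11 of 12 lower in HPD than in LFD rats (median -0.17) and 10 of 12 higher in HFD than in LFD rats (median 0.16), where 47.7%, 46.1% and 51.5% of all probes lay on these sides. Without HPD replicate 7 all 12 were lower in HPD than in HFD rats (median -0.42) and than in LFD rats (median -0.23). Cd163 was well above background on 0 arrays. Their summed Cy5 signal ran from 55682 to 137859 intensity units in HPD rats, from 87133 to 263561 in HFD rats and from 94332 to 191455 in LFD rats. Their part in the differences of the 9 genes was not tested.

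Nr4a1 varied with the monocyte markers from rat to rat. Its r with their mean was 0.92 and its rho 0.79 over 18 arrays (adjusted p = 0.00081 and 0.0186, permutation tests over 81 relations of 9 genes with 9 cell type lists, p = 1e-05 being the smallest they can give). The relation was singled out after its value was seen. It was 0.81 without the 2 arrays farthest from the median of the list and 0.92 after removing diet and slide. Among 8505 genes outside the list 10, or 0.118%, had an r as high, Nr4a1 included. Of its r with each of the 12 markers, the highest were those with the adaptor gene Tyrobp (0.90) and the lysozyme gene Lyz2 (0.88). HPD replicate 4, lowest in Nr4a1 at -1.20, had a marker mean of -1.29, and HFD replicate 1, highest in Nr4a1 at 0.97, had 0.83.

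Of the 81 relations, 6 passed by r and 2 by rho, and 4 of the 6 were those of Nr4a1, the others with B cell (r = 0.71, rho = 0.55), dendritic cell (r = 0.71, rho = 0.75) and neutrophil markers (r = 0.70, rho = 0.58). Without the 2 arrays farthest from the median of the list, the r with B cell markers was 0.46, with neutrophil markers 0.42 and with dendritic cell markers 0.66. By rho the B cell and neutrophil relations did not pass (adjusted p = 0.170 and 0.161, permutation tests). The dendritic cell list rests on 3 measured genes of 10, Batf3, Tcf4 and Clec10a. Batf3 is also in the list of other AP-1 and partner factors. Ier2 with dendritic cell markers had r = 0.79 (adjusted p = 0.00729) and rho = 0.68 (adjusted p = 0.0643), and Klf6 with erythroid markers r = 0.67 (adjusted p = 0.0298) and rho = 0.66 (adjusted p = 0.0814), by permutation tests. With the monocyte list, Ier2 had r = 0.63 (adjusted p = 0.0579), Fos 0.52 (adjusted p = 0.166) and Junb 0.094, so these genes did not pass. LFD replicate 2, lowest of the LFD rats in the 9-gene average at -0.60, had a monocyte mean of 0.33, the highest of that group.

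Of the markers of the other cell types 0 passed the test in any comparison. In HPD against HFD rats, 8 of 8 platelet markers (median -0.28), 7 of 7 erythroid markers (median -0.81) and 8 of 9 NK cell markers (median -0.24) were lower. So were the 3 dendritic cell markers measured, of 10 listed (median -0.25), while 11 of 15 T cell markers were higher (median 0.10). Neutrophil, B cell and plasma cell markers were lower for 4 of 8, 3 of 6 and 2 of 5. Without HPD replicate 7 the counts lower in HPD than in HFD rats were the same for platelet, erythroid, NK and dendritic cell markers, 0 of 15 for T cell, 6 of 6 for B cell, 5 of 8 for neutrophil and 3 of 5 for plasma cell markers. In HPD against LFD rats, 8 of 8 platelet (median -0.58), 7 of 7 erythroid (median -0.72) and 8 of 9 NK cell markers (median -0.12) were lower, as they were without HPD replicate 7 (medians -0.67, -0.56 and -0.16). In HFD against LFD rats, platelet markers were lower for 8 of 8 (median -0.21) and erythroid markers for 3 of 7. The mean of the platelet markers was -2.03 on HFD replicate 2 and 1.29 on LFD replicate 2. Its median over arrays was -0.129 in HFD and -0.132 in LFD rats. Summed erythroid Cy5 signal ran from 7799 to 21794 intensity units in HPD rats, 9925 to 47860 in HFD rats and 6626 to 49399 in LFD rats, and summed platelet signal from 125630 to 268807, 93306 to 595222 and 142285 to 764017 in the same order. Their part in the results was not tested.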

How the data were processed

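RNA of PBMC from 18 rats was hybridised to 2-colour rat arrays, 1 rat (Cy5) against a pool (Cy3) per array, per the labels. The submitters' processing notes name Agilent Feature Extraction 10.5.1.1, whose scanner files the authors deposited. Intensity columns hold processed signals that the software had background-subtracted and dye-normalized, per the file headers, beside other columns of spot flags (0 or 1). A deposited log2 table of these arrays, with a median of 8.40 per column, was used as an alternative. Its making is not given in the sources read, and its centring is unknown. Differences between its arrays had a correlation of 0.887 and a slope of 0.697 with the log2 ratios.

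Here log2 (Cy5/Cy3) of the processed signals was used, with outlier spots left out and spots of a probe averaged. Of 41012 probes, 25207 had a Cy5 signal well above background on 5 arrays or more and were tested by limma 3.58.1 in R 4.3.3, with group means over all arrays, Benjamini-Hochberg adjustment over all probes and a threshold of 0.05. Replicates are separate rats per the labels. The fit was tested on simulated data. Correlations used 100000 permutations in numpy 2.4.6. A gene with several probes is represented by the brightest, and 16271 probes matched RefSeq by name or accession. Probe positions are on rn4, and their place within genes was not analysed here. The rule for named genes took the 9 members, the 3 smallest p-values of each other list per comparison and the 5 genes most like the members' profile. Not every list gene that the rule allows is printed, so those printed are a choice among them. The members and lists were chosen with earlier results of these data known, and the relations with cell type lists were added after seeing the data. Alternatives varied the background correction, normalization, channel, filter, outlier spots, array weights, slide, replicate block, conflicting labels and arrays left out.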

Additional observations from a re-analysis of the deposited data

Results flagged for a closer look

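Klf6 on its brighter probe had a log2 ratio of -0.63 on HPD replicate 7, the array with conflicting labels, while the other 5 HPD rats lay between -0.10 and 0.11. The gap to the nearest of them, divided by the whole range of the group, exceeds the critical value of 0.625 for 6 samples. Of 30 groups examined for the 10 probes, 1 was singled out in this way, and chance singles out about 1 in 20. Without that array Klf6 stood at -0.12 ± 0.14 in HPD against HFD rats and at 0.088 ± 0.14 in HPD against LFD rats.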

How the results depend on the processing

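No member passed the test under any setting run, with a lowest adjusted p of 0.513 (array quality weights) or, leaving out single arrays, 0.618. Of 477 member values under other settings 449 kept their sign and 28 did not, and of 540 with 1 array left out 523 kept it. In HPD against HFD all 9 brightest probes stayed below 0 except Csrnp1, at 0.031 with the conflicting array counted as HFD (the other Klf6 probe then stood at 0.021). Sizes moved more: Egr2, at -0.37 in the report, was at -0.065 and -0.045 with normexp on all and unmarked spots, -0.082 with Cy5 alone and -0.061 in the authors' table, where Klf6 was at -0.035 against -0.22. In HPD against LFD, Egr2 was at 0.064 with normexp on all spots and 0.018 without marked spots. Junb was at 0.072 and the other Klf6 probe at 0.029 with Cy5 alone, and Klf6 at 0.066 in the authors' table. With slide as a block Egr1 was at 0.047, and also without the conflicting array 0.14, with Klf6 at 0.049. With that array as HFD, Egr1, Junb, Klf6 and the other Klf6 probe were at 0.13, 0.014, 0.088 and 0.065. Without slide 1 the Klf6 probes were at 0.050 and 0.27. In HFD against LFD, Csrnp1 was at 0.0044 with loess, 0.083 with slide as a block, 0.083 without slide 1 and 0.054 with the block and without the conflicting array. Egr2 was at -0.058 with Cy5 alone and -0.36 without slide 1, and Fosl2 at -0.020 with array weights. The cause was not tested.

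With the replicate block (the replicate number as a block), HPD against LFD gave Egr1 0.35, Junb 0.00022 and Klf6 0.044, and HFD against LFD gave Fosl2 -0.034 and the other Klf6 probe -0.032. No other array has the replicate number of the array with conflicting labels, so the block takes that array out of the differences. The setting is thus not separate from leaving that array out. This block called 1 probe in HPD against LFD, where array weights called 2 and the fit without LFD replicate 2 called 1 (range 0 to 1 over arrays left out), against 0. Same-numbered arrays correlated at -0.32 to 0.23 in their deviations, over 0.1 in 6 of 16 pairs. Some of the 16 pairs shared a slide, and no values of differently numbered arrays stand beside them. Whether the numbers pair the rats was thus not tested.

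With 1 array left out, HFD against LFD ranged from -0.12 to 0.050 for Csrnp1, -0.014 to 0.36 for Egr2 and -0.091 to 0.42 for the other Klf6 probe. HPD against LFD ranged from -0.33 to 0.14 for Egr1, -0.29 to 0.014 for Junb, -0.062 to 0.088 for Klf6 and -0.42 to 0.085 for the other Klf6 probe. Probes called for slide with diet in the model, 89 in the report, numbered 834 and 892 with normexp on all or unmarked spots, 149 with loess, 171 with Cy5 alone, 2042 in the authors' table, 8 with no filter, 414 with both channels above background on all arrays (which drops Egr2), 0 with array weights, 260 with the conflicting array as HFD, 0 with HFD replicates 1 and 6, the most alike pair of arrays, averaged and 0 to 3168 with 1 array left out. The correlation of Nr4a1 with the monocyte list was 0.88 to 0.95 under all settings, and 31 to 34 of 36 gene pairs stayed above 0, or 28 of 28 where the filter drops Egr2. Array weights were not run for these. Those settings, the slide block without the conflicting array and the gene lists without it were chosen after seeing the data.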
